A study of Mus musculus with 9 samples.

Results

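The SLC25 genes encode the mitochondrial carriers, the largest family of transporters of the inner mitochondrial membrane. The file listed 47 protein-coding genes with a symbol that begins with Slc25a. Of these, 38 had a mean of 1 FPKM or more over the 9 libraries and are the members described here, among 13514 genes that passed the same filter. FPKM are sequenced fragments corrected for transcript length and for depth, and a gene's value is the sum over its transcripts. The study measured RNA of hearts from wild-type mice by bulk sequencing in 3 groups of 3 libraries. One group had a sham operation, one was taken 1 day after surgery that caused an acute myocardial infarction (labelled AMI), and one 7 days after it. No group carried a transgene or a deletion by its labels. The sources used here give no strain, sex, age or region of the heart, and no collection day for the sham group. The same sham libraries were the control for both times. Hearts without Hdc, which the series also describes, were not analysed here.

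A mitochondrial carrier is a small membrane protein made of 3 similar repeats, which takes up its substrate on one side of the inner membrane and releases it on the other. Oxidative phosphorylation depends on them, because ADP and phosphate have to enter the matrix and ATP has to leave it. Other members move the acids of the tricarboxylic acid cycle, amino acids, acylcarnitines, cofactors, nucleotides and iron. Heart muscle is dense with mitochondria, and its main ADP/ATP carrier is the product of Slc25a4, also called ANT1.

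The promoters of 3 members are shown because these genes mark the ends of the range described below: Slc25a34 had the largest fall, Slc25a4 the highest level and Slc25a24 the largest rise on day 1. Each sequence is from RefSeq on GRCm38.p6, runs 5′ to 3′ on the gene's strand and covers 250 bases before to 50 bases after the start of the gene. The build differs from the GRCm39 build of the deposited values. Slc25a34 is at chr4:141623785-141624084 on the minus strand, Slc25a4 at chr8:46211013-46211312 on the minus strand and Slc25a24 at chr3:109122899-109123198 on the plus strand. Capitals mark TGACCTT, the reverse complement of AAGGTCA, a short motif of estrogen-related receptors.
Slc25a34: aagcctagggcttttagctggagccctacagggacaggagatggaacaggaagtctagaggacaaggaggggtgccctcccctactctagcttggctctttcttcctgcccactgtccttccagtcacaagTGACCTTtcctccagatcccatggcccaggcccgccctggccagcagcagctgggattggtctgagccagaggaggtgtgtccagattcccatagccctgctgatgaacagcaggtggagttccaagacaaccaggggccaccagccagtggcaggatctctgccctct
Slc25a4: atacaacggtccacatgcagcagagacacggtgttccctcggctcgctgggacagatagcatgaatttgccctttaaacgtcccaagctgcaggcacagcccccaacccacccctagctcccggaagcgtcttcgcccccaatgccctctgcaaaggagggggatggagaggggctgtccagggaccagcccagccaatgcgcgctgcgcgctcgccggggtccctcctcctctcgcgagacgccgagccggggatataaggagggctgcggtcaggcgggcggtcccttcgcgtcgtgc
Slc25a24: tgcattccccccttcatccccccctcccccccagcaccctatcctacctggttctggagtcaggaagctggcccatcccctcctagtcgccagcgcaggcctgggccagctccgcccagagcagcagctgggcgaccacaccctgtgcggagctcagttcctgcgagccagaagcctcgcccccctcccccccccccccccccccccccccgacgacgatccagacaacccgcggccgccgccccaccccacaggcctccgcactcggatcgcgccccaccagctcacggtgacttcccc
AAGGTCA on either strand was in 4.72% of the 32851 promoters of the table. In Slc25a34 it began at position -119 from the start of the gene, and it was in neither of the other 2 windows. The NRF1 motif, searched on both strands, was in 0.971% of all promoters and in none of the 3. A promoter was found for 29 of the 38 members, with 37 promoters in all. AAGGTCA was in 1 of these 37, that of Slc25a34, and the NRF1 motif was in 0. These are too few for a statement about the family. A match of letters is a description and not a binding site.

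Total FPKM ranged from 768943 to 792632 in the sham libraries, from 597380 to 729940 on day 1 and from 521643 to 679204 on day 7. The depth of the libraries is unknown, because FPKM had already been corrected for it. The heart was checked with 12 cardiomyocyte markers, all of them present, whose summed level was 43345 to 48813 FPKM in sham, 22752 to 29275 on day 1 and 18554 to 32473 on day 7. Of these markers 0 were called higher and 7 lower at either time. In bulk tissue, fewer cells of a type and less RNA per cell cannot be told apart. Some libraries stood apart by markers of neighbouring tissue. The sum of the airway markers was 202 FPKM for sham replicate 1 and 1759 for replicate 2 of day 1, and it was 17.0 or less elsewhere. Fat markers summed to 558 FPKM in sham replicate 1 and to 116 or less elsewhere. T cell markers summed to 52.0 FPKM in day 7 replicate 2 and to 9.98 or less elsewhere.

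On day 1, 4 of the 38 members were higher and 10 were lower than in sham, and 24 did not pass the test. The test was limma on log2(FPKM + 1) over all 13514 genes, with a call at a Benjamini-Hochberg adjusted p under 0.05. Of all genes tested, 13.4% were called higher and 14.7% lower, so the share of lower members (26.3%) was above this background and the share of higher members (10.5%) below it. The members had a median log2 fold change of -0.23, against -0.01 over all genes. A call in either direction was made for 28.2% of all genes. Without regard to the test, 5 members lay above all sham libraries and 18 below them, where 22.5% and 25.1% of all genes did, and 17 had an unadjusted p under 0.05, against 41.2% of all genes. On day 7, 4 members were higher and 8 lower, against backgrounds of 15.7% and 17.3%. The median was -0.21 for the members and -0.02 for all genes, of which 33.1% were called in either direction. At that time 5 members lay above all sham libraries and 13 below them, where 25.0% and 28.8% of all genes did, and 19 had an unadjusted p under 0.05, against 45.7% of all genes. Slc25a24, Slc25a30, Slc25a37 and Slc25a45 were called higher at both times. Slc25a4, Slc25a16, Slc25a33, Slc25a34 and Slc25a46 were called lower at both times. Both comparisons use the same 3 sham libraries.

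These counts depended on scaling and on single libraries. Rescaling each library to a common total (TPM) moved the median of all genes to 0.23 on day 1 and 0.30 on day 7, and that of the members to 0.04 and 0.11, so that the members stayed below all genes by 0.20 and 0.19. With TPM the higher and lower counts were 4 and 3 on day 1, against 18.1% and 4.45% of all genes, and 6 and 1 on day 7, against 28.2% and 3.90%. The lower share of the members on day 7 was then 2.63%, below that of all genes. The higher count on day 1 was 1 when sham replicate 2 was left out and also 1 when replicate 2 of day 1 was. The higher share of all genes was then 7.40% and 7.16%, against 2.63% of the members. The lower count on day 1 was 3, 3 and 6 without sham replicates 1, 2 and 3, and 4 and 1 without day 1 replicates 1 and 2. Without sham replicates 2 and 3 the lower share of all genes was 6.04% and 8.99%, against 7.89% and 15.8% of the members. It was 9.15% without day 1 replicate 1, against 10.5% of the members. Without sham replicate 1 the lower share of the members was 7.89%, against 9.01% of all genes, and without replicate 2 of day 1 it was 2.63%, against 5.85%. On either day the lower share of the members was above that of all genes in 20 of 23 alternatives and below it in 3, so its place above the background rests on these choices. On day 7 the higher count was 2, 1 and 2 without sham replicates 1, 2 and 3, and 1 and 2 without replicates 1 and 2 of day 7. The higher shares of all genes were then 10.5%, 8.32% and 11.5%, and 9.46% and 11.8%. Leaving out sham replicate 1, sham replicate 2 or either of replicates 1 and 2 of day 7 gave a lower count of 5 each time. The lower shares of all genes were then 11.2%, 7.71%, 9.67% and 11.9%, against 13.2% of the members. Leaving out replicate 3 of day 7 gave a lower count of 12, or 31.6%, against 16.3% of all genes. When sham replicate 1 and replicate 2 of day 1 were both dropped, 0 members were called on day 1, when 256 genes were called higher and 146 lower. On day 7 there were then 2 higher and 2 lower members, 5.26% each, against 7.98% and 7.75% of all genes. The sign of all 14 fold changes called on day 1 was the same in every one of the alternatives run.

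**Figure D1:**
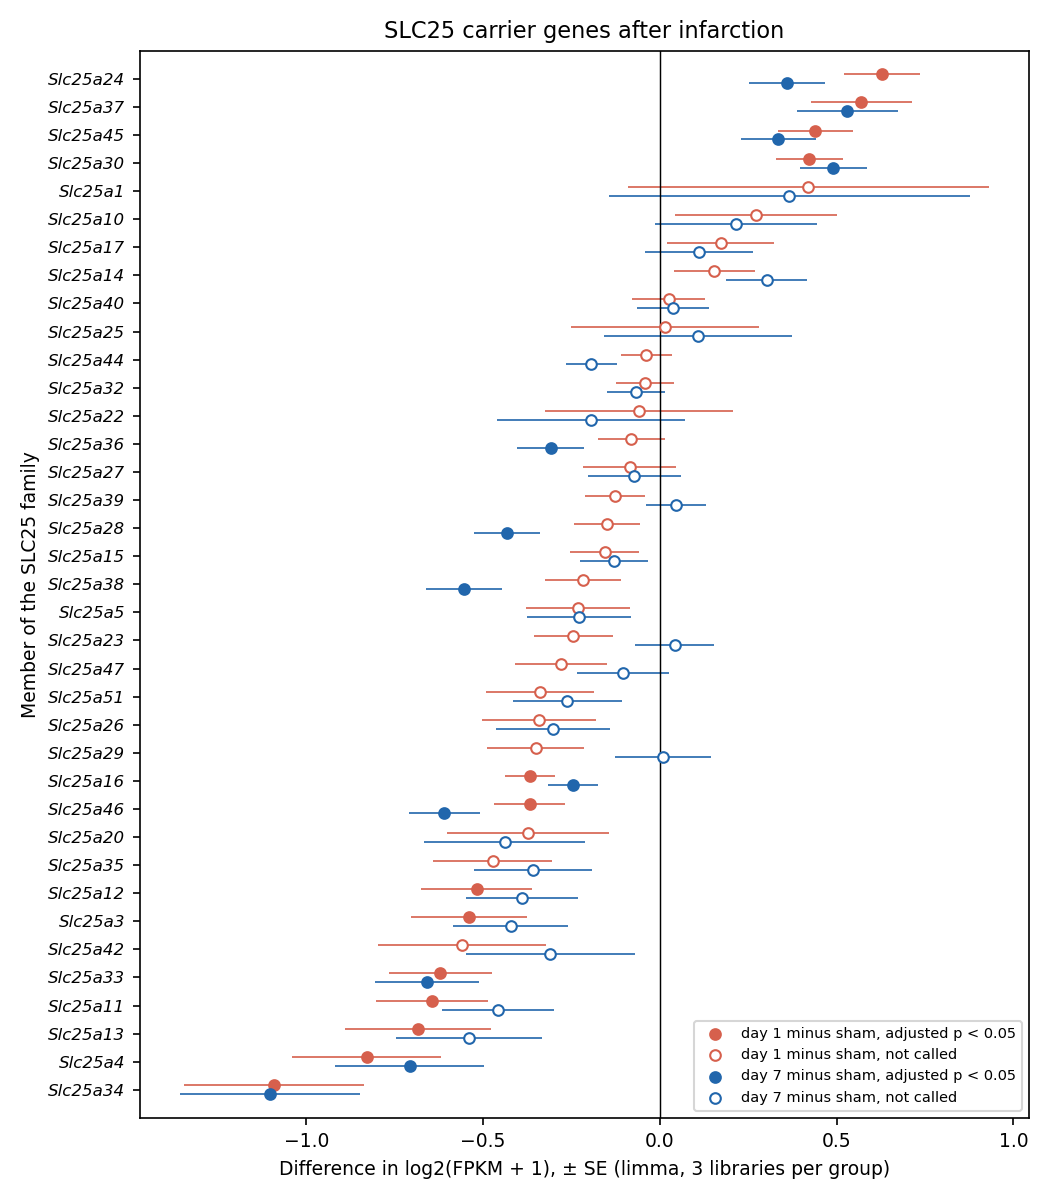
Difference from sham in log2(FPKM + 1) for the members named in the text on day 1 (red) and day 7 (blue), with the standard error from limma over 3 libraries per group. Filled points passed an adjusted p of 0.05. Slc25a34 lies farthest left at both times, at -1.09 and -1.10, and the 4 members called higher lie at the top.

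Slc25a4 exchanges ADP for ATP across the inner membrane and was the most abundant member. It was at 1574, 1541 and 1378 FPKM in sham, 842, 734 and 964 on day 1 and 659.6, 1028 and 1131 on day 7. Every infarct library was below every sham library. The log2 fold change was -0.83 on day 1 (SE 0.21, limma adjusted p = 0.0217) and -0.71 on day 7 (SE 0.21, adjusted p = 0.0335). The call on day 7 held in 11 of 23 alternatives and that on day 1 in 16 of 23. Slc25a5 encodes ANT2, the ADP/ATP carrier found in most tissues, and had 216, 254 and 223 FPKM in sham, 189, 175 and 228 on day 1 and 169, 197 and 228 on day 7. Its groups overlapped and it did not pass the test (log2 fold change -0.23 at either time, adjusted p = 0.267 and 0.255). Slc25a31, the ADP/ATP carrier known from testis, was below the filter on low values.

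Slc25a3 carries phosphate into the matrix, where it is joined to ADP. Its FPKM were 649, 661 and 631 in sham, 442, 419 and 476 on day 1 and 373, 519.8 and 581 on day 7. All infarct libraries were below sham, and day 7 replicate 1 was the lowest. It fell on day 1 (log2 fold change -0.54, SE 0.16, limma adjusted p = 0.0390) and did not pass on day 7 (-0.42, SE 0.16, adjusted p = 0.0768). The day 1 call held in 11 of 23 alternatives.

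The file separated Slc25a3 into 3 transcripts, of which a pair carried nearly all of its level. In the GENCODE M21 annotation each of these has 8 exons, of which 1 is private to it. The private exon has 125 bases in ENSMUST00000170810 and 122 bases in ENSMUST00000076694. Alternative use of such a pair of exons is known for this gene, with one form favoured in heart and skeletal muscle. The first transcript had 589, 609 and 579 FPKM in sham, 384, 361 and 414 on day 1 and 308, 445 and 503 on day 7. The second had 58.6, 50.8 and 50.7 FPKM in sham, 56.2, 56.4 and 60.1 on day 1 and 63.3, 72.4 and 76.0 on day 7. The longer-exon transcript was below sham in all 6 infarct libraries, while the shorter-exon one overlapped sham on day 1 and lay above it on day 7. The share of the second transcript was 8.25% ± 0.694 in sham, 12.9% ± 0.450 on day 1 and 14.7% ± 2.07 on day 7 (SD, n = 3). The 3 sham libraries did not overlap the infarct libraries, which ranged from 12.6% to 17.0%. This pair was looked at after its values were seen, so no test is given. The sources used here do not name the tool that divided reads among transcripts.

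**Figure D2:**
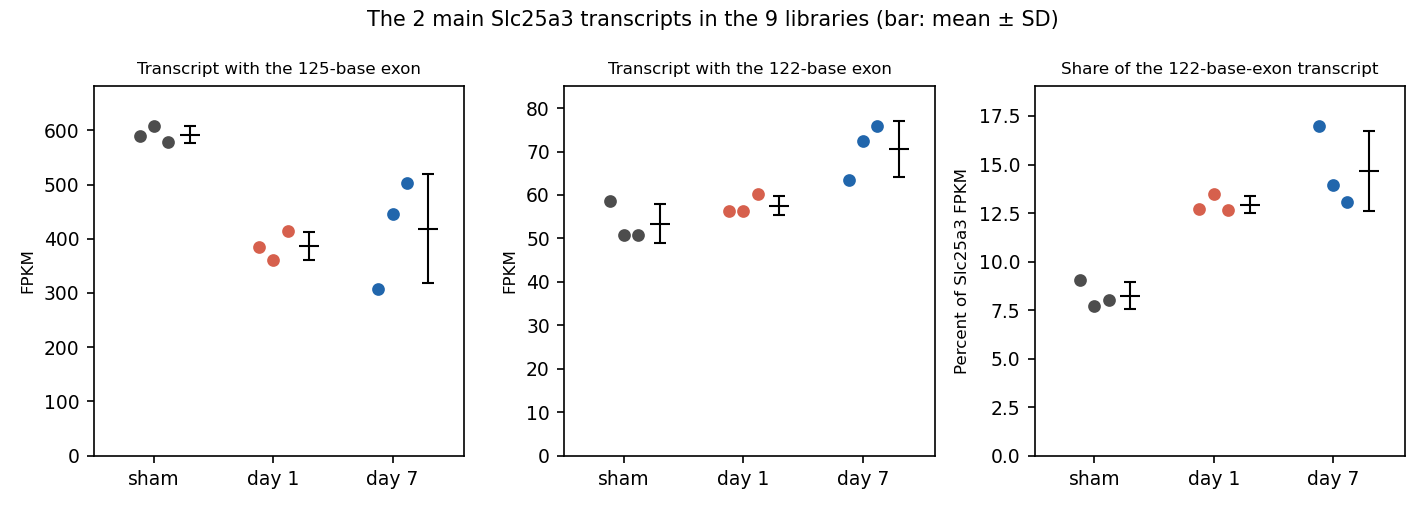
FPKM of the 2 main Slc25a3 transcripts in each library, and the share of the transcript with the 122-base exon in the gene's FPKM, in percent. Points are replicates 1 to 3 and bars are means with SD. The share was 9.03% or less in sham and 12.6% or more in every infarct library.

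Slc25a4, Slc25a3 and Slc25a5 made up most of the family's level. The 38 members summed to 2934 ± 147 FPKM in sham, 1915 ± 172 on day 1 and 2073 ± 447 on day 7 (SD, n = 3). Slc25a4 alone took 51.0% ± 1.07 of this sum in sham, 44.1% ± 2.07 on day 1 and 45.0% ± 2.57 on day 7. The share of Slc25a5 was 7.87% ± 0.679, 10.3% ± 0.532 and 9.67% ± 0.956, and that of Slc25a3 was 22.1% ± 0.708, 23.3% ± 0.602 and 23.7% ± 0.269. Slc25a4 had the highest share in every library, and its sham range of 49.8% to 51.9% did not overlap the infarct libraries, at 42.0% to 46.6%. The 35 members below these summed to 559 ± 29.9 FPKM in sham, 425 ± 2.66 on day 1 and 444 ± 64.6 on day 7.

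The malate-aspartate shuttle moves reducing equivalents of cytosolic NADH into the matrix through an oxoglutarate/malate carrier, Slc25a11, and the calcium-regulated aspartate/glutamate carriers Slc25a12 (aralar) and Slc25a13 (citrin). All 3 fell on day 1. Slc25a11 was at 132, 142 and 127 FPKM in sham, 87.1, 78.2 and 91.2 on day 1 and 74.4, 107 and 115 on day 7. All infarct values lay below sham, with log2 fold changes of -0.64 (SE 0.16, limma adjusted p = 0.0195) on day 1 and -0.46 (SE 0.16, adjusted p = 0.0540) on day 7. Slc25a12 had 18.1, 21.2 and 18.7 FPKM in sham, 14.2, 11.9 and 13.6 on day 1 and 11.1, 15.1 and 18.1 on day 7. On day 7 its replicates spread up to just under the lowest sham library, and the change passed on day 1 only (-0.52, SE 0.16, adjusted p = 0.0394 against 0.0864). Slc25a13 was the more abundant of the pair, at 32.5, 36.7 and 42.2 FPKM in sham, 20.7, 20.7 and 26.8 on day 1 and 17.8, 28.0 and 31.6 on day 7. It showed the same order of groups (-0.68, SE 0.21, adjusted p = 0.0384 on day 1, and -0.54, adjusted p = 0.0732 on day 7). The calls for Slc25a12 and Slc25a13 held in 11 and 12 of 23 alternatives. The difference between the times did not pass for any of the 3 (adjusted p = 0.531 to 0.723).

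**Figure D3:**
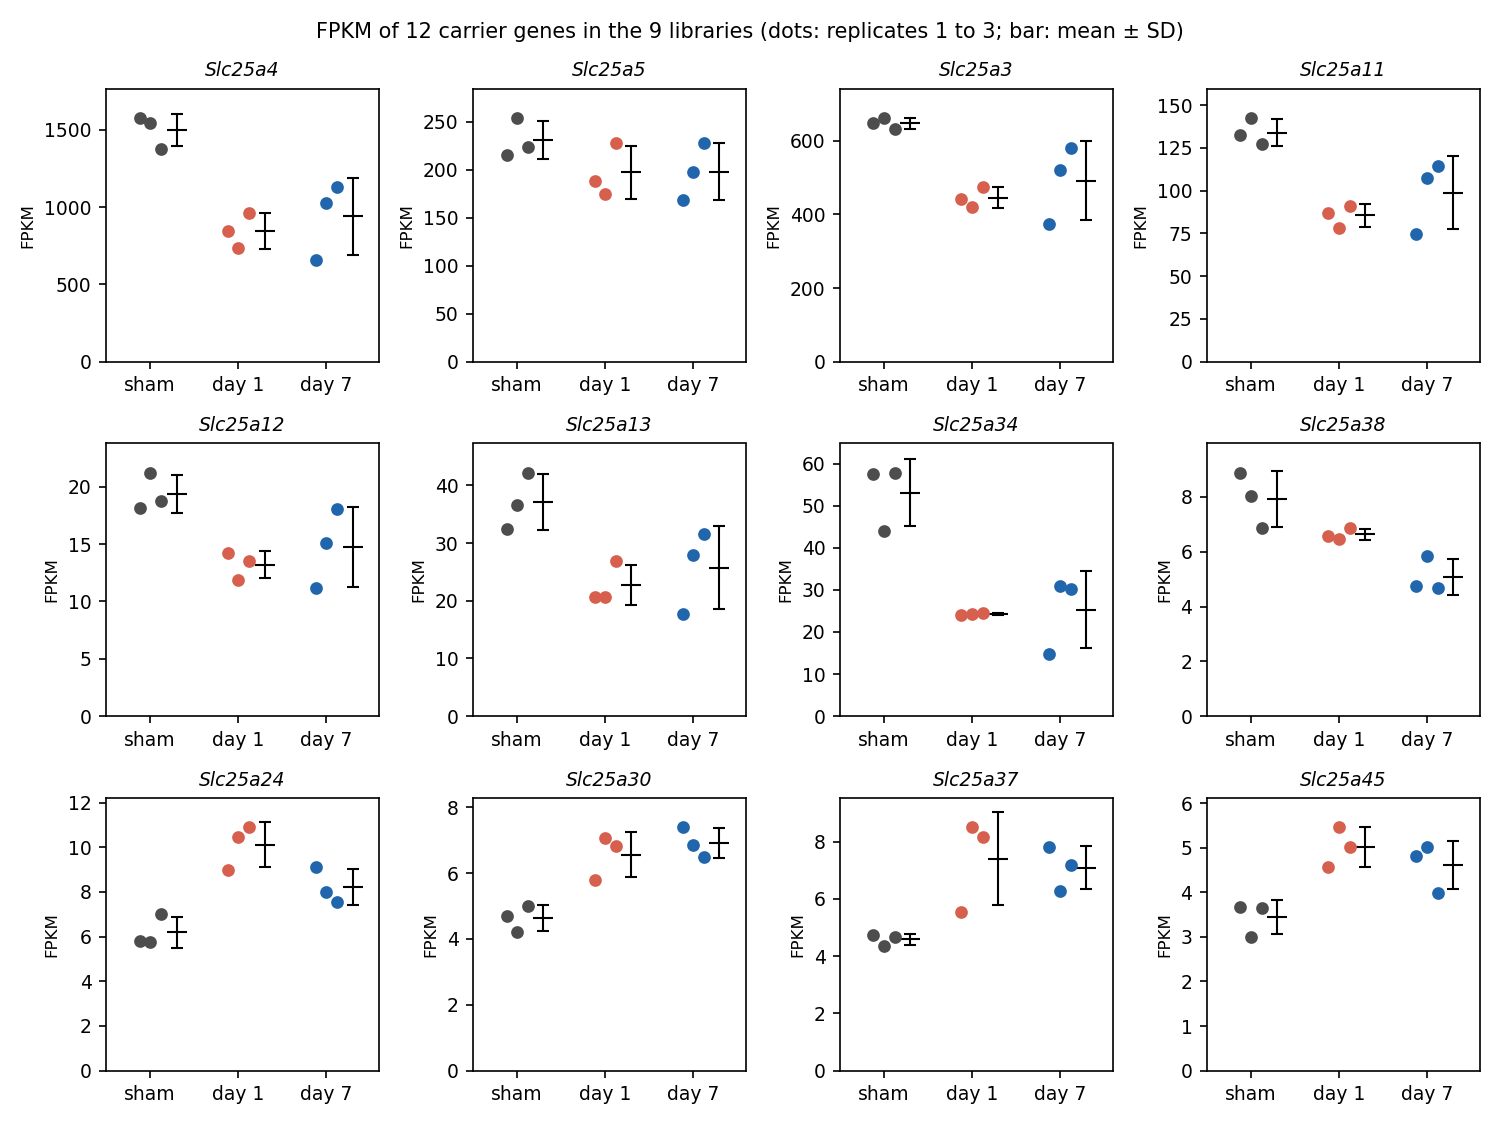
FPKM of 12 members in each library, on axes that start at 0. Points are replicates 1 to 3 and bars are means with SD. Slc25a34 was at 43.9 FPKM or more in sham and at 31.0 or less in all infarct libraries, while Slc25a24, Slc25a30, Slc25a37 and Slc25a45 were higher than sham in all 6.

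The largest fall in the family was that of Slc25a34, a carrier whose substrates are poorly known. It was at 57.6, 43.9 and 57.8 FPKM in sham, 24.0, 24.3 and 24.4 on day 1 and 14.7, 31.0 and 30.2 on day 7. All infarct libraries lay below the lowest sham library. The log2 fold change was -1.09 on day 1 (SE 0.25, limma adjusted p = 0.0159) and -1.10 on day 7 (SE 0.25, adjusted p = 0.0142), and the calls held in 20 and 22 of 23 alternatives. It was the only member called lower at both times when libraries were rescaled to TPM.

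Several carriers of cofactors and nucleotides fell. Slc25a33 carries pyrimidine nucleotides and was at 8.18, 6.69 and 7.88 FPKM in sham, 5.25, 4.42 and 4.09 on day 1 and 3.37, 5.19 and 4.88 on day 7. It fell at both times (log2 fold change -0.62 and -0.66, SE 0.15, limma adjusted p = 0.0166 and 0.0127). These calls held in 17 and 21 of 23 alternatives, and both were lost with TPM. Its relative Slc25a36 was at 19.3, 23.0 and 17.9 FPKM in sham, 19.5, 18.5 and 18.5 on day 1 and 16.4, 15.8 and 15.6 on day 7. It was lower on day 7 only (-0.31, SE 0.09, adjusted p = 0.0369), a call that held in 8 of 23 alternatives and whose sign turned with TPM (0.03). Slc25a16, a carrier linked to coenzyme A, was at 7.96, 8.39 and 7.88 FPKM in sham, 6.30, 5.87 and 5.93 on day 1 and 6.73, 6.26 and 7.00 on day 7. The groups did not overlap, with log2 fold changes of -0.37 (SE 0.07, adjusted p = 0.00870) and -0.24 (SE 0.07, adjusted p = 0.0305). These calls held in 20 and 14 of 23 alternatives, and with TPM the first was lost and the second fold change became 0.08. Of the remaining members of this group, Slc25a17, Slc25a26, Slc25a32, Slc25a42 and Slc25a51, did not pass at either time (adjusted p = 0.111 to 0.737).

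Slc25a46 is an outer membrane protein of the family that takes part in mitochondrial shape and lipid handling. Its FPKM were 18.1, 21.4 and 19.4 in sham, 15.5, 14.1 and 15.3 on day 1 and 11.2, 12.4 and 14.1 on day 7. The day 7 libraries lay below those of day 1, the nearest by a small margin, and all were below sham. The log2 fold change was -0.37 on day 1 (SE 0.10, limma adjusted p = 0.0276) and -0.61 on day 7 (SE 0.10, adjusted p = 0.00547), the lowest p of any member at that time. With TPM neither call was made.

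Carriers that serve heme and iron moved apart. Slc25a38 brings in glycine for heme synthesis and was at 8.89, 8.02 and 6.88 FPKM in sham, 6.59, 6.47 and 6.87 on day 1 and 4.74, 5.84 and 4.67 on day 7. It was called lower on day 7 (log2 fold change -0.55, SE 0.11, limma adjusted p = 0.00870) and not on day 1 (-0.22, adjusted p = 0.160). Slc25a28 encodes mitoferrin-2, an iron importer of many tissues, and was at 10.6, 10.2 and 8.94 FPKM in sham, 9.76, 8.46 and 8.33 on day 1 and 6.59, 7.48 and 7.19 on day 7. It too was lower on day 7 (-0.43, SE 0.09, adjusted p = 0.0117). The call was lost with TPM for both genes. Slc25a37 encodes mitoferrin-1, the iron importer best known from red cell precursors. It had 4.74, 4.37 and 4.66 FPKM in sham, 5.54, 8.50 and 8.17 on day 1 and 7.81, 6.29 and 7.18 on day 7. All infarct libraries were above sham (0.57 on day 1 and 0.53 on day 7, SE 0.14, adjusted p = 0.0211 and 0.0244), in calls that held in 17 and 16 of 23 alternatives. The summed level of the erythroid markers was 205 to 597 FPKM in sham, 469 to 1853 on day 1 and 758 to 1940 on day 7. Their sums overlapped sham on day 1 and lay above it on day 7. Of these 6 markers, 4 passed the filter on low values, and of those 1 was called higher on day 1 and 4 on day 7. Their part in the rise of Slc25a37 was not tested.

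Calcium-regulated carriers exchange ATP-Mg for phosphate and set the size of the adenine nucleotide pool of the matrix. Slc25a24 was at 5.79, 5.78 and 7.00 FPKM in sham, 8.98, 10.5 and 10.9 on day 1 and 9.10, 7.98 and 7.57 on day 7. Both infarct groups lay above sham. It rose by 0.63 on the log2 scale on day 1 (SE 0.11, limma adjusted p = 0.00590), the lowest p of any member on that day, and by 0.36 on day 7 (SE 0.11, adjusted p = 0.0338). The day 1 call held in 22 of 23 alternatives and the day 7 call in 15, and both were lost without both libraries with airway markers. Slc25a23 was at 17.6, 16.1 and 18.4 FPKM in sham, 16.7, 13.6 and 13.4 on day 1 and 16.1, 17.8 and 20.0 on day 7 and did not pass (adjusted p = 0.134 and 0.796). Slc25a25 varied more within groups than between them, at 4.09, 6.71 and 2.90 FPKM in sham, 2.92, 4.96 and 5.76 on day 1 and 4.54, 4.33 and 5.49 on day 7 (adjusted p = 0.973 and 0.779).

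The other 2 members that rose are less well known. Slc25a30, a relative of the uncoupling proteins first described in kidney, was at 4.70, 4.22 and 4.99 FPKM in sham, 5.79, 7.07 and 6.82 on day 1 and 7.39, 6.87 and 6.48 on day 7. It rose at both times (log2 fold change 0.42 and 0.49, SE 0.09, limma adjusted p = 0.0143 and 0.00861), and the day 7 call held in all 23 alternatives. Slc25a45 was at 3.67, 3.0 and 3.64 FPKM in sham, 4.58, 5.46 and 5.01 on day 1 and 4.81, 5.01 and 3.99 on day 7. Its groups did not overlap sham (0.44 and 0.34, SE 0.11, adjusted p = 0.0184 and 0.0412). The day 7 call held in 10 of 22 alternatives. Markers of other cell types differed in their course. Those of monocytes and macrophages summed to 416 to 746 FPKM in sham, 695 to 991 on day 1 and 957 to 1232 on day 7. Of these 8 markers, 5 and 4 were called higher, and the day 1 sums overlapped sham. Fibroblast markers summed to 1157 to 1474, 1793 to 2394 and 4569 to 6367 FPKM, with 4 and 5 of 7 called higher. Neutrophil markers summed to 46.7 to 63.9, 112 to 304 and 29.5 to 69.2 FPKM, so that day 7 overlapped sham. Of the 4 tested, 4 and 0 were called higher, and Ly6g and Camp were below the filter. All 5 proliferation markers were called higher at both times. The part of these cells in the rises was not tested.

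A number of carriers of fuels and amino acids did not pass at either time. Slc25a20 carries acylcarnitines for fatty acid oxidation and was at 55.4, 45.7 and 44.7 FPKM in sham, 35.5, 39.6 and 36.4 on day 1 and 23.1, 47.0 and 40.9 on day 7. Its day 1 libraries lay below sham, but the difference did not pass (log2 fold change -0.37, SE 0.23, limma adjusted p = 0.252). The branched-chain amino acid carrier Slc25a44 (-0.04 and -0.19), the glutathione carriers Slc25a39 (-0.13 and 0.05) and Slc25a40 (0.02 and 0.04), the ornithine carrier Slc25a15 (-0.16 and -0.13) and the glutamate carrier Slc25a22 (-0.06 and -0.19) were not called on day 1 or day 7. Nor were the basic amino acid carrier Slc25a29, the uncoupling protein relatives Slc25a14 and Slc25a27, or the poorly known Slc25a35 and Slc25a47 (adjusted p = 0.0654 to 0.966).

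The citrate carrier Slc25a1, which exports citrate for fatty acid synthesis, varied widely among the sham libraries. It was at 17.8, 3.74 and 3.83 FPKM in sham, 10.3, 13.3 and 5.41 on day 1 and 9.24, 9.30 and 7.74 on day 7. The high sham library, replicate 1, was also the one with fat markers, where the brown fat gene Ucp1 was at 44.6 FPKM against 2.25 or less elsewhere. The part of fat tissue in its level was not tested. The log2 fold change of Slc25a1 was 0.42 on day 1 and 0.37 on day 7 (limma adjusted p = 0.571 and 0.602). Over the alternatives the highest values were 1.08 and 1.02, and without sham replicate 1 the gene was called higher at both times. Sham replicate 1 was the highest of its group for 19 of the 38 members, among them the dicarboxylate carrier Slc25a10, at 5.80 FPKM against 3.74 and 2.98.

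Ratios between carriers of the same kind of substrate do not depend on how a library is scaled. In sham there were 7.30, 6.08 and 6.17 FPKM of Slc25a4 for each FPKM of Slc25a5. This ratio was 4.46, 4.20 and 4.23 on day 1 and 3.91, 5.22 and 4.96 on day 7, below sham in all 6 infarct libraries. For the mitoferrins, Slc25a28 to Slc25a37, it was 2.24, 2.34 and 1.92 in sham, 1.76, 1.00 and 1.02 on day 1 and 0.843, 1.19 and 1.00 on day 7, again with no overlap. The mitoferrin genes thus went from a ratio of 2.17 ± 0.222 in sham to 1.01 ± 0.173 on day 7 (SD, n = 3). Slc25a23 to Slc25a24 was 3.04, 2.79 and 2.63 in sham, 1.86, 1.30 and 1.23 on day 1 and 1.77, 2.23 and 2.64 on day 7, so that day 1 was below sham and day 7 overlapped it. Slc25a33 to Slc25a36 was 0.385 ± 0.0815 in sham and 0.243 ± 0.0246 on day 1, without overlap. The ratios Slc25a12 to Slc25a13 and Slc25a23 to Slc25a25 overlapped in each comparison. With 3 libraries in each group, the smallest p of an exact two-sided permutation test is 0.1, which the 6 comparisons without overlap reached. Adjusted over the 18 comparisons their exact p was 0.300, so none passed.

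**Figure D4:**
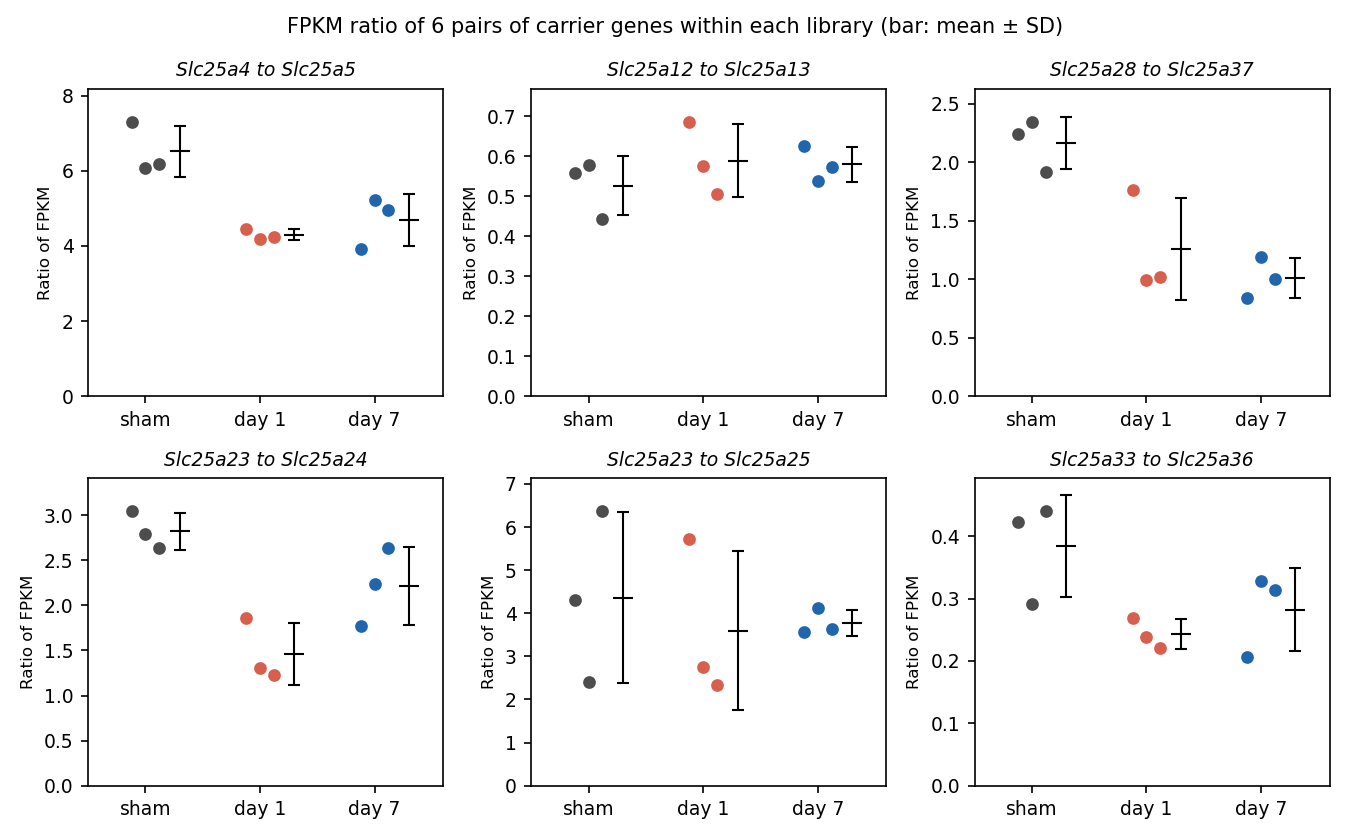
Ratio of the FPKM of 2 carrier genes within each library, for 6 pairs. Points are replicates 1 to 3 and bars are means with SD, on axes that start at 0. Slc25a4 to Slc25a5 and Slc25a28 to Slc25a37 lay lower in all infarct libraries than in sham.

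Between day 7 and day 1, limma called 0 of the 38 members higher and 0 lower, against 2.71% and 2.14% of all genes and 4.85% in either direction, with 7 members at an unadjusted p under 0.05 where 23.2% of all genes were. The lowest adjusted p was 0.112, for Slc25a38 (log2 fold change -0.33, SE 0.11). Slc25a24, Slc25a28, Slc25a36 and Slc25a46 also had lower means on day 7 (-0.27, -0.28, -0.23 and -0.24, limma adjusted p = 0.119 to 0.194). Slc25a29 and Slc25a23 had higher ones (0.36 and 0.29, adjusted p = 0.161 and 0.170). On day 7, 2 members lay above all day 1 libraries and 5 below them, where 13.1% and 14.1% of all genes did. A miss of the threshold with 3 libraries a group does not show that the times were alike.

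The falls were set against the cardiomyocyte markers, in a measure chosen after the values were seen. Per 1000 FPKM of the 12 summed markers, Slc25a4 had 35.7, 31.6 and 31.8 FPKM in sham, 33.7, 32.3 and 32.9 on day 1 and 35.6, 36.5 and 34.8 on day 7. Both infarct groups overlapped sham on this measure. Slc25a34 had 1.31, 0.900 and 1.33 in sham, 0.959, 1.07 and 0.834 on day 1 and 0.791, 1.10 and 0.931 on day 7, which also overlapped. Slc25a3 had 14.3 ± 0.646 in sham, 17.4 ± 1.10 on day 1 and 18.8 ± 1.14 on day 7 (SD, n = 3), without overlap and in the upward direction. Of the 10 members called lower on day 1, 0 were below sham on this measure, 5 overlapped it and 5 were above it. Of the 8 called lower on day 7, 0 were below sham, 6 overlapped it and 2 were above it. Over all 38 members, 23 were above sham on day 1 (60.5%) and 24 on day 7 (63.2%), and 0 were below it. Of all 13514 genes, 79.2% and 75.6% were above sham on this measure and 1.04% and 1.26% below it. The marker sum was lower in every infarct library than in sham, so the 4 members called higher, whose FPKM did not overlap sham, lie above it by construction. The measure gives levels relative to the markers only.

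**Figure D5:**
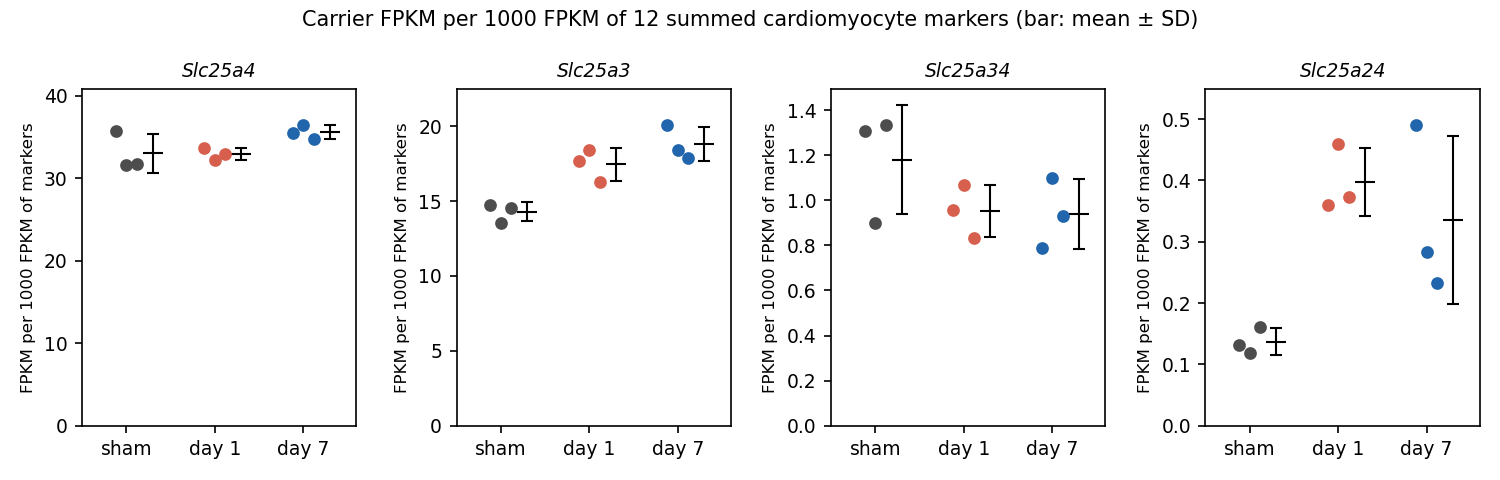
Level of 4 members per 1000 FPKM of the 12 summed cardiomyocyte markers, in each library. Points are replicates 1 to 3 and bars are means with SD. Slc25a4 stayed between 31.6 and 36.5 in all 9 libraries. The marker sum was itself lower after infarction, which raises the values of genes that did not fall with it.

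Within day 7, replicate 1 was the lowest of its group for 21 of the 38 members. The same library had the lowest cardiomyocyte marker sum of its group, 18554 FPKM against 28212 and 32473. It also had the highest fibroblast marker sum, 6367 FPKM against 4569 and 4600. Mitochondrially encoded genes took 24.4% of its FPKM, against 36.0% and 38.0% in the other 2. In that library Slc25a4 was at 659.6 FPKM and Slc25a34 at 14.7, the lowest values of each in the series. Without it, 1 member was higher and 5 lower on day 7, with Slc25a30 higher and Slc25a28, Slc25a33, Slc25a34, Slc25a38 and Slc25a46 lower. These were 2.63% and 13.2% of the members, against 9.46% and 9.67% of all genes. With all 9 libraries, 15.7% and 17.3% of all genes were called. Atrial markers summed to 2677, 1446 and 229 FPKM in sham, 11057, 4361 and 282 on day 1 and 5405, 775 and 1398 on day 7. Skeletal muscle markers summed to 682 to 2252 FPKM in sham, 791 to 2318 on day 1 and 2372 to 3080 on day 7. Of either list, 0 were called at either time, with this wide spread within groups.

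Related transporters outside the symbol rule were read from lists, in the main fit only. Of all genes tested, 13.4% were called higher and 14.7% lower on day 1, and 15.7% and 17.3% on day 7. Each list below is too short for its counts to be told from these shares, so they do not show that a list changed as a whole. Of 5 family genes with other symbols, the uncoupling protein relative Ucp2 rose. Its means were 45.1 ± 9.69 FPKM for sham, 90.1 ± 19.0 on day 1 and 103 ± 9.09 on day 7 (log2 fold change 0.98 and 1.19, limma adjusted p = 0.00892 and 0.00502). Mtch2, an insertase of the outer membrane, fell (-0.39 and -0.37, adjusted p = 0.0272 and 0.0296), and Ucp1, Ucp3 and Mtch1 did not pass. The pyruvate carrier and sideroflexin list had 3 of 7 higher and 3 lower on day 1, and 2 and 2 on day 7. Mpc1, a subunit of the pyruvate carrier, went from 632 ± 58.4 FPKM to 356 ± 67.3 and 359.6 ± 62.4 and was called lower at both times (adjusted p = 0.0117 and 0.0118). Sfxn4 was also called lower at both times (-0.62 and -0.72). Sfxn1 (0.78 and 0.63) and Sfxn3 (0.35 and 0.84) were called higher at both times, and Sfxn5 on day 1 only (1.11).

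Of the outer membrane channels, 1 of 4 was higher at either time, and 2 and 3 were lower. Among them the pore genes Vdac2 (-0.57 and -0.60) and Vdac3 (-0.61 and -0.66) fell at both times. The calcium uniporter and cation exchange list had 1 higher and 3 lower of 8 on day 1 and 2 and 2 on day 7. Mitochondrial ABC transporters had 0 higher and 3 lower of 4, and 0 and 2. The import pathway that inserts carriers into the inner membrane had 0 higher and 3 lower of 9, then 0 and 4. Its small chaperone Timm10 went from 69.9 ± 6.08 FPKM to 29.0 ± 9.98 on day 1 and 37.0 ± 4.80 on day 7 (log2 fold change -1.29 and -0.91, limma adjusted p = 0.00559 and 0.0161). Between day 7 and day 1 the calls in these lists were Sfxn3, higher (0.49), and Sfxn5, lower (-0.92).

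Low expression left 9 of the 47 genes outside the tests: Slc25a2, Slc25a18, Slc25a21, Slc25a31, Slc25a41, Slc25a43, Slc25a48, Slc25a53 and Slc25a54. Their highest value in any library was 0.662 FPKM, and 3 of them stayed under 0.1 FPKM throughout. Just inside the filter were Slc25a47, Slc25a27 and Slc25a14 with means of 1.04, 1.20 and 1.27 FPKM, and just outside it Slc25a2, Slc25a18 and Slc25a43 with 0.409, 0.386 and 0.382. In sham, 4 members had a mean over 100 FPKM, 12 between 10 and 100, and 22 below 10.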

How the data were processed

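RNA of wild-type mouse hearts was extracted with TRIzol and made into the 9 libraries using a VAHTS Universal V6 kit, as the labels' protocols say. The authors deposited FPKM per transcript, normalised to transcript length and sequencing depth. Reads were checked in FastQC 0.11.9, aligned to GRCm39 by HISAT2 2.1.0 and counted by HTSeq 0.11.2, per the series' design text and the submitters' processing notes. The sources used here give neither the annotation release nor the strand setting. Of the positive values, 11.8% were under 1e-06, so reads had been divided among transcripts. Counting by HTSeq alone would not give such values, and the sources used here do not name the tool that did. Depth is unknown, because the values had already been scaled by it.

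The 55361 transcript entries were summed to 25468 genes, and 13514 with a mean of 1 FPKM or more were tested as log2(FPKM + 1), which understates changes of low genes. limma 3.58.1 in R 4.3.3 was used with a variance trend, 1 mean per group and a spread shared by the 9 libraries, two-sided, with Benjamini-Hochberg adjustment over all genes and a call under 0.05. The procedure was run on simulated data with independent noise for each gene. These data held no scaling or tissue differences between libraries, so the run does not bear on calls that depend on them. Ratios were tested with exact permutations in scipy 1.17.1. No label ties the libraries to separate animals. The p-values therefore rest on library-to-library spread alone, and that spread may be technical.

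The members, gene lists and tests were chosen with earlier results of these data known. Named with each library's value were, per comparison, the 8 called members with the lowest p, the members of the ratio pairs and the 5 most abundant, and other called members could be named. The counts cover all members, of which 1 is not reported here by name. Of the members, 12 have an exon that overlaps another gene in GENCODE M21, 2 of them on the same strand. Among those called, Slc25a11, Slc25a33, Slc25a37 and Slc25a46 overlap genes on the opposite strand, and without counting by strand their reads cannot be told apart. Alternatives were pseudocount 0.1, other filters, other scalings, other variance settings, the replicate block, array weights, the most expressed transcript and leaving out libraries. Same-numbered libraries deviated together in 4 of 9 pairs (correlation over 0.1). Their correlations ranged from -0.370 to 0.269, and those of other pairs from -0.530 to 0.403. Such correlations cannot show whether the numbers pair the libraries.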

Additional observations from a re-analysis of the deposited data

How the results depend on the processing

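For 24 results (6 counts of called members and 18 isoform ratios), these changed by more than 1.5 times or by more than 1 SD. Lower members on day 1 (10) were 2 with no filter, 3 with TPM, 3 when rescaled without mitochondrially encoded genes and 0 without both libraries with airway markers. Of all genes, 5.14%, 4.45%, 6.56% and 1.08% were lower in these settings, against 14.7% in the main fit. Higher members on day 1 (4) were 0 without both libraries with airway markers, where 1.89% of all genes were higher. On day 7, higher members (4) were 1 with no filter, 2 with the replicate block and 2 without both libraries with airway markers. The higher shares of all genes were then 6.32%, 12.7% and 7.98%, against 15.7% in the main fit. Lower members on day 7 (8) were 1 with TPM, 4 when rescaled without mitochondrially encoded genes and 2 without both libraries with airway markers. The lower shares of all genes were then 3.90%, 7.73% and 7.75%, against 17.3% in the main fit. Leaving out 1 library gave 1 to 5 higher and 1 to 13 lower members on day 1, and 1 to 4 higher and 5 to 12 lower on day 7. Of all genes, 7.16% to 14.5% were then higher and 5.85% to 17.0% lower on day 1. On day 7 these shares were 8.32% to 16.8% and 7.71% to 19.4%. The replicate block gave 4 higher and 7 lower members on day 1 and 2 higher and 6 lower on day 7. Of all genes, it called 10.7% higher and 11.8% lower on day 1, and 12.7% and 14.0% on day 7. Whether the numbers pair the libraries is unknown. With TPM, the log2 fold changes of Slc25a16 and Slc25a36 turned to 0.076 and 0.033 on day 7. The cause was not tested, except that no filter raised the number of genes tested to 25468 and left-out libraries leave fewer samples. Between day 7 and day 1 no alternative called a member. The unknown depth limits members near 1 FPKM.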

Other observations

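The 5 transcript entries of Slc25a51, the mitochondrial NAD carrier, did not keep their shares between libraries. ENSMUST00000107796 was at 11.1, 5.54 and 9.89 FPKM in sham, 9.28, 0.303 and 0.180 on day 1 and 1.10, 10.1 and 10.6 on day 7. ENSMUST00000116341 was at 0.0747, 5.96 and 0.0523 FPKM in sham, 0.0784, 10.1 and 9.07 on day 1 and 9.25, 0.210 and 0.0648 on day 7. Where one was near 0 the other was high, in libraries of every group, while the gene's sum stayed between 17.9 and 30.0 FPKM. Values of single transcripts of this gene therefore did not follow the groups.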
